A study of Mus musculus with 7 samples.

Results

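The transcript levels of 10 genes of Nodal and activin signalling were followed across 7 RNA-Seq libraries of mouse cells made during and after reprogramming to pluripotency. The genes were chosen by name, with no filter on level: Nodal, Gdf3, Inhba and Inhbb (ligands), Tdgf1 and Acvr2b (co-receptor and receptor), Lefty1, Lefty2 and Fst (secreted antagonists) and Smad7 (an intracellular inhibitor). All 10 symbols matched 1 Ensembl identifier each among the 29267 genes of the tables.

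Fibroblasts from OG2 mouse embryos, whose egfp transgene is driven by the Oct4 promoter with its distal enhancer (GOF18ΔPE), had received Oct4, Sox2, Klf4 and c-Myc by retrovirus. They were cultured in mES medium, which contains serum, LIF and vitamin C, or in the serum-free 5C medium, which contains N2, bFGF, LIF and vitamin C, and were sorted by fluorescence on day 15, all labelled passage 0. The fractions are called mES-Oct4GFP+ and mES-Oct4GFP- for the first medium, and 5C-Oct4GFP+ with 5C-Oct4GFP- for the second. 5C-Oct4GFP+ cells were also converted in a naive medium with LIF and inhibitors of GSK3 and MEK, giving 5C-Oct4GFP+ (naive), or in a primed medium, giving 5C-Oct4GFP+ (primed), both labelled passage 20. The study describes the converted cells both as cells after 3 days in the new medium and as cells passaged further, so that the time of RNA collection rests on the passage label alone. R1 ESCs-primed cells, also labelled passage 20, were primed cells derived from the R1 embryonic stem cell line. Their primed state was induced on MEF feeder cells in a medium with bFGF and activin A, and they were maintained without both, on serum-coated plates, with CHIR99021 and IWR-1. Which of these media the primed cells were in when RNA was taken is not given in the sources used here, and the primed fraction carries GFP+ in its label although GFP was lost on conversion.

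Nodal, Gdf3 and the activins, which are dimers of inhibin beta subunits, are ligands of the TGF-β family that signal through type I and type II activin receptors to SMAD2 and SMAD3. Nodal needs an EGF-CFC co-receptor such as Tdgf1 (Cripto), and its own targets include Nodal, Lefty1 and Lefty2, so the pathway feeds back on itself in both directions. In the early mouse embryo it maintains the epiblast and specifies mesoderm and endoderm, and primed pluripotent cells are classically grown with activin.

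Each group was 1 library, so no spread between cultures could be measured and no p-value is given. Levels are TPM (transcript abundance per length, scaled to 1 total in every library), a ratio is that of 2 TPM values, and each interval in parentheses is an exact 95% interval for the ratio that covers counting error only. A gene was called higher or lower where log2(TPM + 1) differed by at least 1 between 2 libraries. Genes below 1 TPM in both were not tested. The libraries held 6108252 to 11496615 expected counts and 13351 to 14922 genes at a TPM of at least 1. Summed TPM of 6 naive-state markers was 558 to 1246 in the mES-Oct4GFP+, 5C-Oct4GFP+ and naive libraries and 6.29 and 16.4 in the converted and R1 primed libraries. For 6 primed-state markers the sums were 1473 and 1354 in the primed libraries, 711 in 5C-Oct4GFP+ and 123 to 229 in the others. The median TPM of 12 fibroblast markers was 43.7 and 20.5 in the GFP- cells of mES and 5C medium, against 0.89 to 1.13 in the mES-Oct4GFP+, 5C-Oct4GFP+ and naive libraries. Fewer cells of a type and less RNA per cell cannot be told apart in such bulk libraries.

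The promoter windows of Tdgf1 and Nodal are printed because these genes had similar profiles over the 7 libraries, and those of Inhba and Inhbb because the activin subunit genes differed. Each is RefSeq's sequence (GRCm38.p6) from 250 bases before to 50 bases after the gene's start, on the gene's strand. Windows were given for 5 of the 10 genes. Capitals mark matches, on either strand, to AATNNACA (the FOXH1 motif), CAGAC (a SMAD box), ATGCNAAT (an octamer) or TATAAA.
Tdgf1, chr9:110946109-110946408, minus strand: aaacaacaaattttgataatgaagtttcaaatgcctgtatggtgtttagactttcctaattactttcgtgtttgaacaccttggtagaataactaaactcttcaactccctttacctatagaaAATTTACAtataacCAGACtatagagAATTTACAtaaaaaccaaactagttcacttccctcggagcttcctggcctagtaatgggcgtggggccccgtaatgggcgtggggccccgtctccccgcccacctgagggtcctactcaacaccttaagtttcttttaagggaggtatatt
Nodal, chr10:61417722-61418021, plus strand: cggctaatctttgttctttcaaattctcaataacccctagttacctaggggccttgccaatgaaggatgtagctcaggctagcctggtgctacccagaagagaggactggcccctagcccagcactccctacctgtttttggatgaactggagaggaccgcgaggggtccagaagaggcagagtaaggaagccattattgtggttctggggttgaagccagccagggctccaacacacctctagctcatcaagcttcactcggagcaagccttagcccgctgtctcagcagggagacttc
Inhba, chr13:16011601-16011900, plus strand: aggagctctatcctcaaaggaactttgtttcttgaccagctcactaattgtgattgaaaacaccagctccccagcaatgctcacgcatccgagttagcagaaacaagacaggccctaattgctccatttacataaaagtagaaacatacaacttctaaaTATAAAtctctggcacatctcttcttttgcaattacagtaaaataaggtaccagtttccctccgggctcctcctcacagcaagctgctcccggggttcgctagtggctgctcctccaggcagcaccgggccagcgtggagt
Inhbb, chr1:119422199-119422498, minus strand: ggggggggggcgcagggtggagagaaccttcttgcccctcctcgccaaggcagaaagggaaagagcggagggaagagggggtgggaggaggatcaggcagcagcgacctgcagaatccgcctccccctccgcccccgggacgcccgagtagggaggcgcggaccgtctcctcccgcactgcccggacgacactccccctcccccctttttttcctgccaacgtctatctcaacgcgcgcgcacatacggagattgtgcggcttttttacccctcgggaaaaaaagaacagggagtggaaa

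The Tdgf1 window held 2 matches to AATNNACA, which start 127 and 101 bases before the gene's start, with 1 CAGAC between them at 113 bases. Of 32851 promoter windows, 12.2% held AATNNACA and 49.6% held CAGAC, so the latter is found in many promoters. The Inhba window held 1 TATAAA, a motif of 13.6% of windows, 91 bases before the start. No printed window held ATGCNAAT, which 3.15% of windows held, or the palindrome GTCTAGAC, which 0.213% held. The windows of Nodal and Inhbb held none of these motifs. Base composition differed: GC content was 64.3% for Inhbb with 23 CpG dinucleotides, 54.0% for Nodal, 47.7% for Inhba and 41.7% for Tdgf1 with 7 CpG, beside a median of 52.7% and 7 CpG over all windows.

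Nodal itself (chromosome 10, 61417972 to 61425338, 3 exons) was measured at 34.9 TPM in the GFP+ and 10.7 in the GFP- cells of mES medium, 40.3 and 4.75 in those of 5C medium, 34.5 after naive and 70.1 after primed conversion, and 77.0 in R1 ESCs-primed. The primed libraries were highest and the GFP- libraries lowest. Counting error alone did not separate the R1 primed from the converted primed library (ratio 1.10, interval 0.99 to 1.22), nor mES-Oct4GFP+ from the naive library (1.01, 0.85 to 1.20).

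Gdf3, a ligand of the same family that is expressed in pluripotent cells, was measured at 103 TPM in the GFP+ and 8.61 in the GFP- cells of mES medium, 94.5 and 24.5 in those of 5C medium, 130 after naive and 0.14 after primed conversion, and 9.81 in R1 ESCs-primed. The 0.14 TPM of the converted primed library was 1.81 expected counts, under the 3 counts taken as a floor. Gdf3 was the ligand gene of highest TPM in both GFP+ libraries, in naive cells and in 5C-Oct4GFP-, and was at or under the floor in the converted primed library.

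Inhba, which encodes the inhibin beta A subunit of activin A, rested on few counts: 1 in the GFP+ cells of either medium and in naive cells, 24 and 13 in the GFP- cells of mES and 5C medium, 16 in the converted primed cells and 30 in R1 ESCs-primed. Its level was 0.21 TPM in the GFP+ and 3.74 in the GFP- cells of mES medium, 0.12 and 2.09 in those of 5C medium, 0.15 after naive and 1.75 after primed conversion, and 5.36 in R1 ESCs-primed. Inhbb, the beta B subunit gene, was measured at 0.50 TPM in the GFP+ and 2.33 in the GFP- cells of mES medium, 8.59 and 21.9 in those of 5C medium, 0.30 after naive and 2.17 after primed conversion, and 7.52 in R1 ESCs-primed. Inhbb was highest in 5C-Oct4GFP-, and counting error did not separate 5C-Oct4GFP+ from R1 ESCs-primed (1.14, 0.91 to 1.44). Inhba was highest in R1 ESCs-primed.

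Tdgf1, the co-receptor gene, was measured at 229 TPM in the GFP+ and 38.5 in the GFP- cells of mES medium, 710 and 55.8 in those of 5C medium, 233 after naive and 476 after primed conversion, and 508 in R1 ESCs-primed. It was the member of highest TPM in every library but the primed ones, where Lefty1 was higher. The highest library was 5C-Oct4GFP+. A share of 12.5% of the 50-base windows of the Tdgf1 transcript also occurs in Tdgf1-ps1, so part of its reads could be split with that pseudogene. Acvr2b, a type II receptor gene, was measured at 10.9 TPM in the GFP+ and 11.3 in the GFP- cells of mES medium, 12.6 and 11.7 in those of 5C medium, 8.54 after naive and 26.2 after primed conversion, and 23.4 in R1 ESCs-primed. It was highest in the primed libraries, and had the smallest range of the members. Counting error did not separate neighbours in the order of the 5 others.

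Lefty1, whose product blocks Nodal and its co-receptor, was measured at 24.4 TPM in the GFP+ and 32.1 in the GFP- cells of mES medium, 27.1 and 10.1 in those of 5C medium, 17.0 after naive and 564 after primed conversion, and 715 in R1 ESCs-primed. The primed libraries stood apart from all 5 others, the next highest being 32.1. Lefty2, which encodes a second antagonist of the same kind, was measured at 25.4 TPM in the GFP+ and 27.4 in the GFP- cells of mES medium, 58.1 and 4.30 in those of 5C medium, 31.0 after naive and 55.4 after primed conversion, and 21.5 in R1 ESCs-primed. Within each library, the ratio of Lefty1 to Lefty2 was 0.47 to 2.36 in the 5 libraries outside the primed state, 10.2 in the converted primed cells and 33.3 in R1 ESCs-primed. The genes lie 35919 bases apart on chromosome 1 and share sequence: 17.9% of the 50-base windows of Lefty1 occur in Lefty2 and 11.99% of those of Lefty2 occur in other genes, nearly all in Lefty1. The split of reads between them is RSEM's estimate.

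Fst, which encodes follistatin, an activin-binding protein, was measured at 4.25 TPM in the GFP+ and 17.2 in the GFP- cells of mES medium, 7.89 and 11.2 in those of 5C medium, 5.14 after naive and 32.5 after primed conversion, and 74.3 in R1 ESCs-primed. It was highest in the primed libraries and lowest in mES-Oct4GFP+ and naive cells. The antisense gene Gm47040 shares 3.72% of its windows, and reads of the 2 strands cannot be told apart with a kit that does not mark strand. Smad7, an inhibitory SMAD that is induced by the pathway, was measured at 23.3 TPM in the GFP+ and 23.7 in the GFP- cells of mES medium, 24.1 and 8.12 in those of 5C medium, 28.1 after naive and 33.9 after primed conversion, and 33.0 in R1 ESCs-primed. It was low in 5C-Oct4GFP- only, and within 23.3 to 33.9 in the other 6 libraries.

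**Figure D1:**
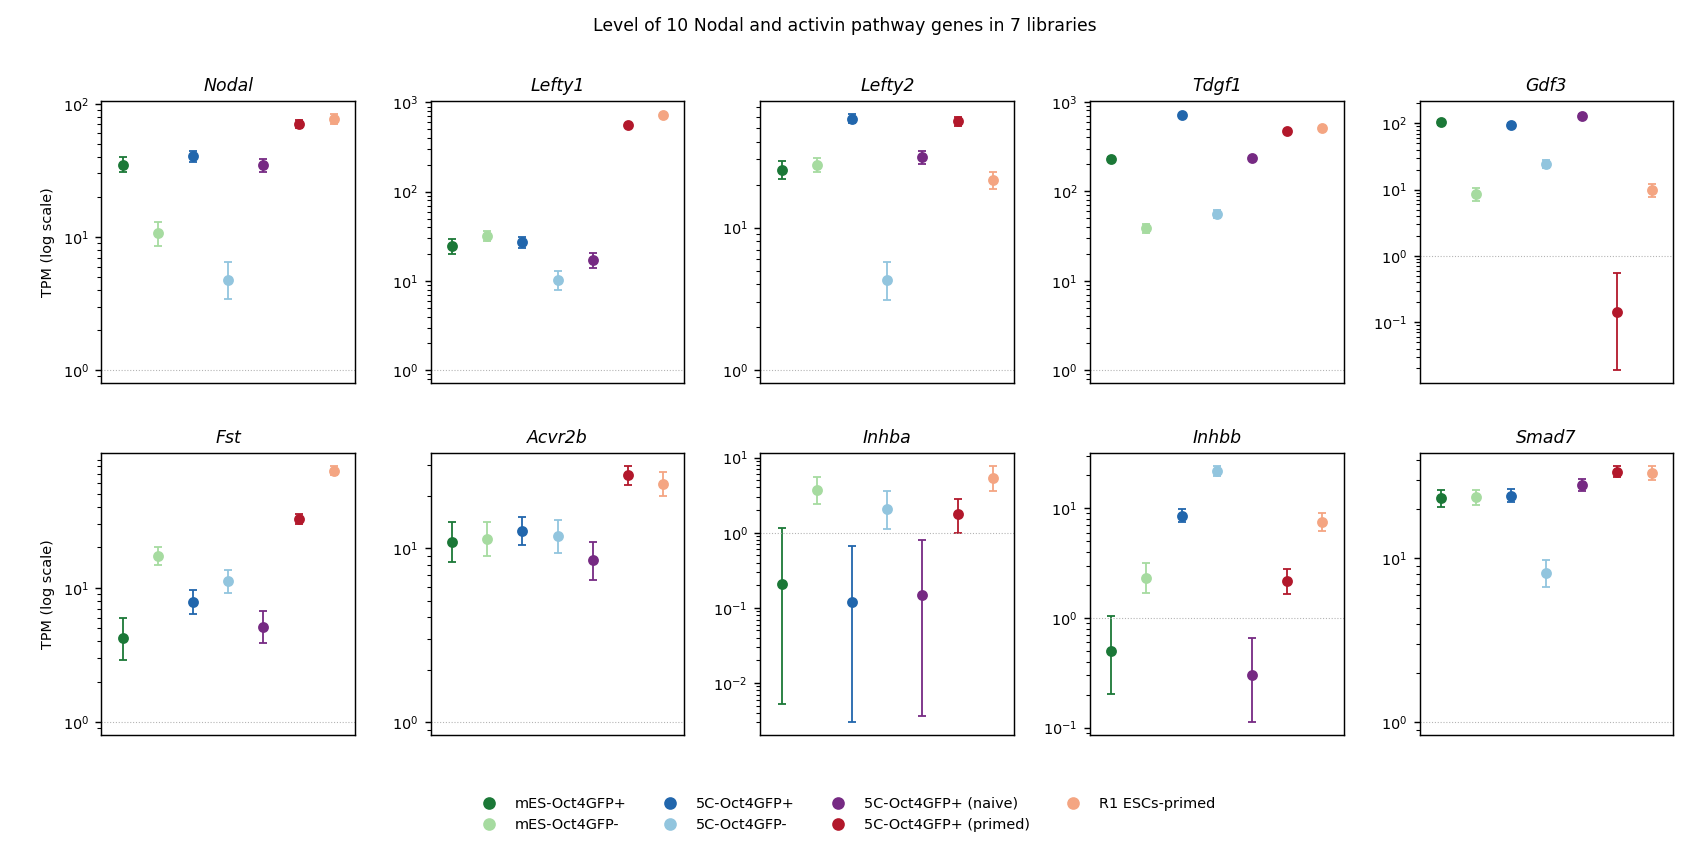
TPM of each of the 10 genes (1 panel a gene, log scale) in the 7 libraries, which are coloured as in the key and stand in its order from left to right. Bars are exact 95% counting intervals and the dotted line is 1 TPM, where shown. Lefty1 stands at 564 and 715 in the primed libraries against at most 32.1 elsewhere, and Gdf3 at 0.14 in the converted primed library.

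**Figure D2:**
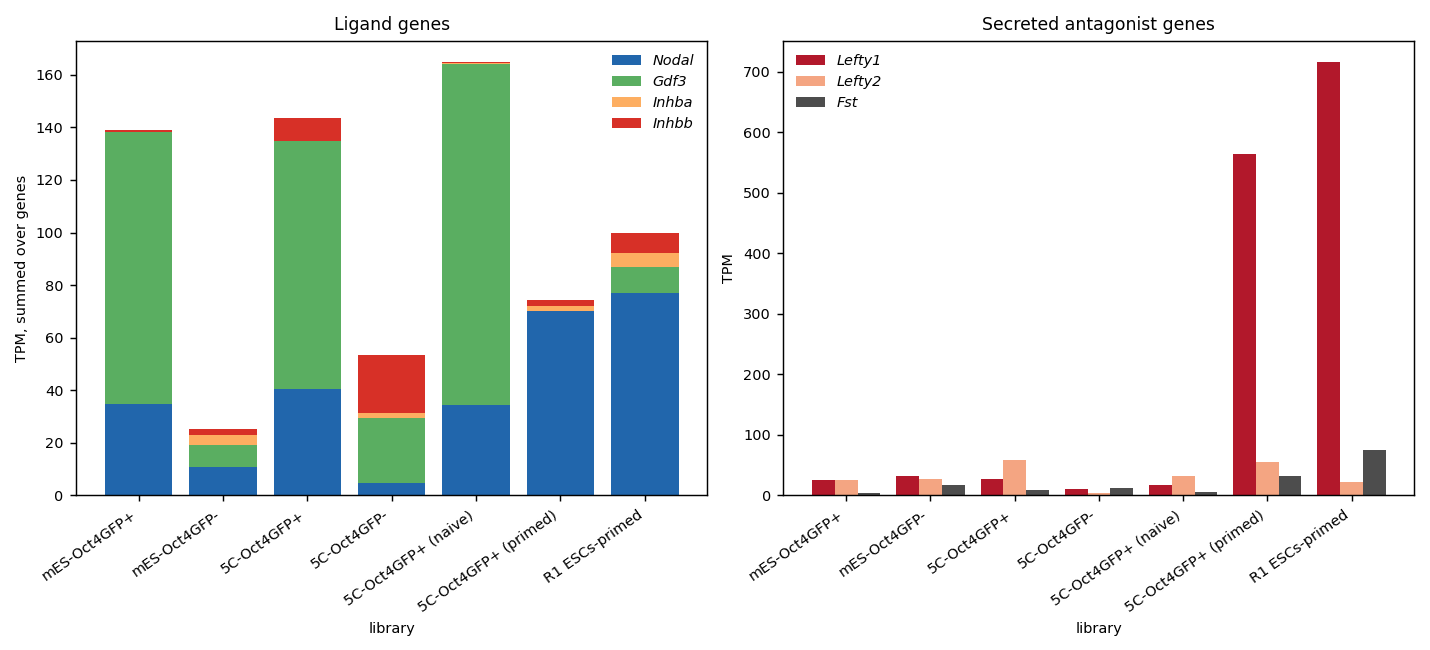
TPM of the 4 ligand genes, stacked (left), and of the 3 secreted antagonist genes side by side (right), by library. Gdf3 makes up most of the ligand sum in the mES-Oct4GFP+, 5C-Oct4GFP+ and naive libraries, Nodal in both primed libraries, and Lefty1 exceeds Lefty2 and Fst in the primed libraries.

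The 4 ligand genes summed to 139 and 143 TPM in the GFP+ cells of mES and 5C medium and 25.3 and 53.2 in the GFP- cells. The sum was 165 in the naive cells, 74.2 in the converted primed cells and 99.7 in R1 ESCs-primed. Ratios within a library, which unlike these sums do not depend on scaling between libraries, differed too. The ratio of Gdf3 to Nodal was 0.81 to 5.15 in the libraries outside the primed state, 0.002 in the converted primed cells and 0.13 in R1 ESCs-primed. Lefty1 and Lefty2 together were 1.43, 2.11 and 1.39 times Nodal in mES-Oct4GFP+, 5C-Oct4GFP+ and naive cells, 5.58 and 3.04 times in mES-Oct4GFP- and 5C-Oct4GFP-, and 8.83 and 9.57 times in the converted and R1 primed cells. The ratio of Tdgf1 to Nodal was 17.6 in 5C-Oct4GFP+ and 11.7 in 5C-Oct4GFP-, and 3.62 to 6.79 in the other 5 libraries.

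The comparison of GFP+ with GFP- cells asks how cells with an active Oct4 reporter differ from those without. In mES medium 6 of 10 members were past 2-fold, as were 46.7% of all genes tested. Of these, 3 members were higher in mES-Oct4GFP+ (Nodal, Tdgf1 and Gdf3), where 17.9% of all genes tested were, and 3 were lower (Fst, Inhba and Inhbb), where 28.8% were. Gdf3 was 11.99 times as high (9.47 to 15.3), Tdgf1 5.94 times (5.25 to 6.73) and Nodal 3.28 times (2.57 to 4.21). Fst was 4.05 times lower (2.77 to 6.12) and Inhbb 4.66 times lower (2.07 to 12.2). The Inhba ratio, 17.8 with an interval of 2.95 to 745, rested on 1 count. Lefty1, Lefty2, Acvr2b and Smad7 were not past 2-fold.

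In 5C medium 8 of 10 members were past 2-fold, beside 31.0% of all genes tested. Of these, 6 were higher in 5C-Oct4GFP+ (Nodal, Lefty1, Lefty2, Tdgf1, Gdf3 and Smad7), where 8.45% of all genes tested were, and 2 were lower (Inhba and Inhbb), where 22.6% were. The median log2 difference was 1.40 over the members and -0.25 over all genes tested. Lefty2 was 13.5 times as high (9.97 to 18.8), Tdgf1 12.7 times (11.6 to 14.0) and Nodal 8.48 times (6.16 to 11.97). Smad7 was 2.97 times as high (2.41 to 3.70) and Lefty1 2.67 times (2.01 to 3.57), and Inhbb was 2.55 times lower (2.15 to 3.04). Nodal, Tdgf1 and Gdf3 were thus higher and Inhba and Inhbb lower in the GFP+ cells of both media. With differences of log2(FPKM + 1), Inhbb in mES medium (-0.77) and Inhba in 5C medium (-0.95) were not called. Their FPKM was 0.27 against 1.17 and 0.07 against 1.07, low values on which the pseudocount of 1 weighs. Markers of several other cell types were higher in the GFP- libraries: a summed 475 TPM of 7 extraembryonic endoderm markers in mES-Oct4GFP- (7 of 7 at 1 TPM or more) against 11.4 in the GFP+ cells (4 of 7, with Afp at 0), and 209 against 28.8 in 5C medium (5 and 2 of 7, with Afp at 0 in both). Col4a1 made up most of the endoderm sums in 5C medium, at 191 TPM in GFP- and 25.6 in GFP+ cells. Gata4, Gata6, Sox17 and Sox7 were at 0.51 to 2.57 TPM in 5C-Oct4GFP-, and Dab2 was at 10.8. Keratin-list sums were 1430 against 5.44 and 542 against 197. Krt8 (748 TPM) and Krt18 (454) made up most of the sum in mES-Oct4GFP-. In 5C medium Krt17 differed little, at 139 in GFP- and 121 in GFP+ cells, and made up most of the GFP+ sum. The 5 trophoblast markers went both ways. Their sum was 234 in GFP- against 98.9 in GFP+ cells of mES medium, but 13.4 against 33.5 in 5C medium. In mES medium Krt7 (176.5 against 0.75), Hand1 (42.6 against 0.17) and Elf5 (3.57 against 0.51) were higher in GFP- cells. Cdx2 (1.45 against 10.6) and Tfap2c (9.42 against 86.9) were lower there. The part of all these markers in the members' differences was not tested.

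Between media within GFP+ cells, 3 of the 9 members tested were past 2-fold, beside 27.2% of all genes. All 3 (Lefty2, Tdgf1 and Inhbb) were higher in the cells of 5C medium, where 13.7% of genes were, and 0 were lower, where 13.5% were. Inhbb was 17.2 times as high (8.14 to 43.0), Tdgf1 3.10 times (2.93 to 3.28) and Lefty2 2.29 times (1.96 to 2.68). The Lefty2 call was lost when Lefty1 and Lefty2 were summed, at a log2 difference of 0.76 against 1.16. Lefty1 alone differed by 0.14, so the sum is not a test of how reads were split. Inhba was at 1 count in both libraries and no ratio is given. Within GFP- cells 6 of 10 members were past 2-fold, beside 19.8% of all genes. Gdf3 and Inhbb were higher in 5C medium, where 9.68% were, and Nodal, Lefty1, Lefty2 and Smad7 were lower, where 10.1% were. Inhbb was 9.40 times as high (6.85 to 13.2) and Gdf3 2.84 times (2.18 to 3.72). Lefty2 was 6.36 times lower (4.63 to 8.97), Lefty1 3.16 times (2.38 to 4.22), Smad7 2.92 times (2.34 to 3.65) and Nodal 2.24 times (1.54 to 3.32). The Nodal call was lost with log2(FPKM + 1), at -0.88, on FPKM values of 2.43 in 5C and 5.33 in mES medium. It was also lost with log2(CPM + 1) without length, at -0.99. Inhbb was the member that was higher in 5C medium in both fractions.

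On conversion to the naive state, Tdgf1 was 3.05 times lower (2.90 to 3.20) and Inhbb 28.6 times lower (12.8 to 77.9) than in 5C-Oct4GFP+. These were the 2 of 9 members tested that were past 2-fold, beside 27.5% of all genes, with 17.5% lower and 10% higher. Tdgf1 and Nodal then stood near mES-Oct4GFP+, at 233 against 229 TPM and 34.5 against 34.9.

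On conversion to the primed state 5 of 10 members were past 2-fold, beside 29.7% of all genes tested. Lefty1, Fst and Inhba were higher than in 5C-Oct4GFP+, where 13.7% of all genes were, and Gdf3 and Inhbb were lower, where 16.1% were. Lefty1 was 20.8 times as high (18.1 to 24.1) and Fst 4.12 times (3.32 to 5.16). Gdf3 was 675 times lower with an interval of 168 to 5038, and Inhbb 3.96 times lower (2.94 to 5.41). The Inhba ratio, 14.6 with an interval of 2.26 to 609, again rested on 1 count in 5C-Oct4GFP+. Its call was lost with log2(FPKM + 1), at 0.87, on FPKM values of 0.96 against 0.07. Some markers on lists of other cells were higher in the converted primed cells too. The fibroblast median was 7.81 TPM against 0.89 in 5C-Oct4GFP+ (12 and 5 of 12 genes at 1 TPM or more). The fibroblast sum was lower, at 285 against 537, with Fn1 at 196 against 523. The extraembryonic endoderm sum was 126 against 28.8, the rise being mostly Sox17 (60.4 against 0.59) and Gata6 (28.8 against 0.56). On that list Col4a1 (25.3 against 25.6) and Sox7 (0.35 against 0.49) were not higher. The trophoblast sum was lower, at 18.9 against 33.5. The part of these markers in the differences of Lefty1, Fst and Inhba was not tested. Acvr2b fell just short of the threshold at 0.997 on the log2 scale, a ratio of 2.07 (1.67 to 2.60).

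The primed and naive derivatives of the same cells differed most among the comparisons for the number of members higher: 7 of 10 (Nodal, Lefty1, Tdgf1, Fst, Acvr2b, Inhba and Inhbb), where 22.2% of all genes tested were, with Gdf3 lower, where 16.7% were. Together 8 members and 38.9% of genes were past 2-fold. The median log2 difference was 1.14 over the members and 0.14 over all genes. Lefty1 was 33.2 times as high in primed cells (27.7 to 40.2), Fst 6.32 times (4.77 to 8.52), Inhbb 7.23 times (3.08 to 20.2) and Acvr2b 3.07 times (2.34 to 4.08). Nodal at 2.04 times (1.79 to 2.32) and Tdgf1 at 2.04 times (1.94 to 2.15) were barely past 2-fold, and both were under it after rescaling by the median ratio, at 0.87 and 0.89 on the log2 scale. With differences of log2(FPKM + 1) the count of members called was 4 in place of 8, Nodal, Tdgf1, Inhba (0.86) and Inhbb (0.90) being lost. FPKM values were lower than TPM, so the same pseudocount of 1 weighed more on low genes. Inhbb was at 1.19 FPKM in primed and 0.17 in naive cells, and Inhba at 0.96 and 0.08. The fibroblast median was 7.81 TPM in primed and 1.13 in naive cells. The fibroblast sum went the other way, at 285 and 449, with Fn1 at 196 and 432. The extraembryonic endoderm sum was 126 and 4.88, mostly Sox17 (60.4 and 0.94), Gata6 (28.8 and 0.41) and Col4a1 (25.3 and 0.94). The trophoblast sum was lower in primed cells, at 18.9 against 75.2. The keratin-list sum was 797 and 10.4, nearly all of it Krt8 (434 and 9.54) and Krt18 (361 and 0.48). Krt5 (0.25 and 0.20), Krt14 (0 in both), Krt17 (1.83 and 0) and Trp63 (0.29 and 0.18) were low in both. The part of these markers in the members' differences was not tested. Gdf3 was 928 times lower (232 to 6931), on 1.81 counts.

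The converted primed cells and R1 ESCs-primed, the comparison that sets the converted cells beside primed cells of an embryonic stem cell line, differed past 2-fold in 5 of 10 members and in 7.39% of all genes tested. Lefty2 was higher, where 2.30% of all genes tested were, and Gdf3, Fst, Inhba and Inhbb were lower, where 5.09% were. Lefty2 was 2.58 times as high (2.21 to 3.03), a log2 difference of 1.33. With Lefty1 and Lefty2 summed it was -0.25, but that sum was mostly Lefty1, at 564 and 715 TPM. Gdf3 was 70.1 times lower (16.8 to 529), Fst 2.29 times (2.03 to 2.58), Inhbb 3.47 times (2.51 to 4.84) and Inhba 3.06 times (1.62 to 6.02). The Gdf3 value rested on 1.81 counts in the converted cells. The Inhba call was lost with log2(FPKM + 1), at -0.98, on FPKM values of 0.96 against 2.87. Lefty1, Nodal, Tdgf1, Acvr2b and Smad7 were not past 2-fold, with ratios of 0.79 to 1.12. The median TPM of 12 fibroblast markers was 19.1 in R1 ESCs-primed and 7.81 in the converted cells, Col1a1 being at 40.5 and 13.3, and the part of this in the differences of Fst, Inhba and Inhbb was not tested.

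**Figure D3:**
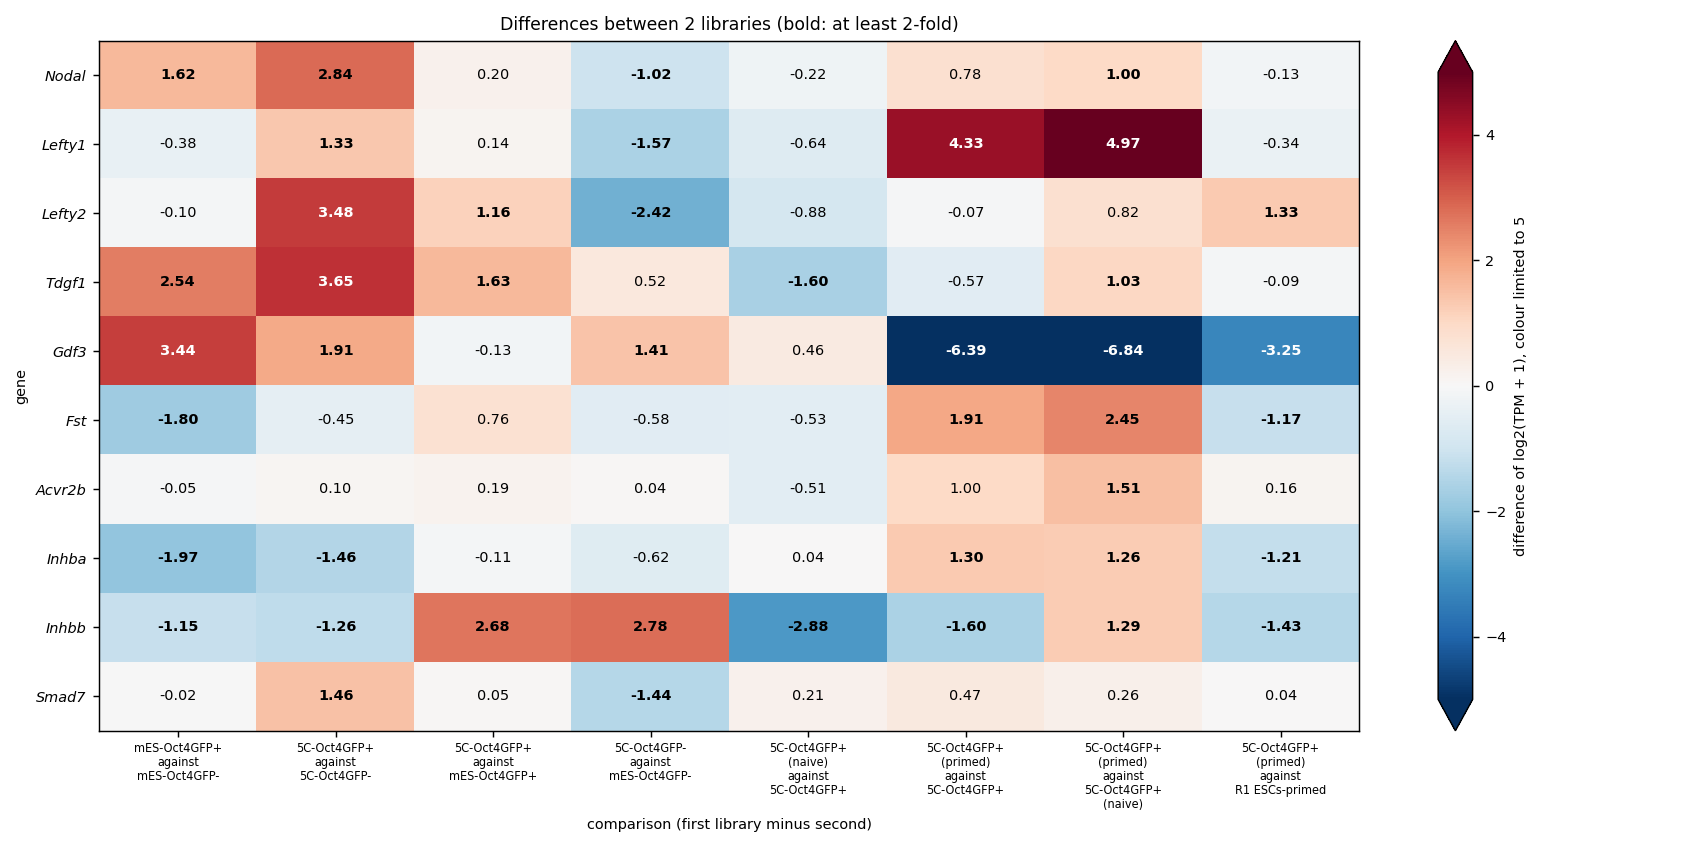
Differences of log2(TPM + 1), first library minus second, for the 10 genes (rows) in the 8 comparisons (columns). Red is higher and blue lower in the first library, the colour ends at 5 on either side, and bold marks a difference of at least 2-fold. Acvr2b reads 1.00 in the converted primed against 5C-Oct4GFP+ column but is not bold because its value is 0.997.

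Of 51 other pathway genes listed by role, 50 matched a gene and 37 to 46 were tested in a comparison. In mES-Oct4GFP+ against mES-Oct4GFP-, 2 were higher and 25 of 45 lower, and in 5C-Oct4GFP+ against 5C-Oct4GFP-, 2 were higher and 21 of 44 lower. These are 55.6% and 47.7% lower, where 28.8% and 22.6% of all genes were. Their median log2 differences were -1.24 and -0.96, beside -0.15 and -0.25 over all genes, so most listed genes that differed were lower in GFP+ cells, unlike Nodal, Tdgf1 and Gdf3. The fibroblast, endoderm and keratin markers given above were likewise lower in GFP+ cells, and their part in these counts was not tested. Between the media 7 were higher and 6 lower of 40 in the GFP+ cells of 5C medium, which is 17.5% and 15% beside 13.7% and 13.5% of all genes. In its GFP- cells 2 were higher and 13 lower of 45, or 4.44% and 28.9% beside 9.68% and 10.1%. In naive against 5C-Oct4GFP+ cells 4 were higher and 8 lower of 37, or 10.8% and 21.6% beside 10% and 17.5%. The shares in the naive comparison and between media in GFP+ cells were near those of all genes. In the converted primed cells 18 of 44 were higher and 3 lower than in 5C-Oct4GFP+, and 24 of 44 were higher and 2 lower than in naive cells, with medians of 0.74 and 1.17 beside 0.06 and 0.14 over all genes. The shares higher were 40.9% and 54.5%, beside 13.7% and 22.2% of all genes. Against R1 ESCs-primed, 1 was higher and 5 were lower of 46, or 2.17% and 10.9% beside 2.30% and 5.09%.

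Among genes of the signalling chain, Foxh1, the DNA-binding partner of SMAD2 in Nodal responses, was 4.25 times as high in 5C-Oct4GFP+ as in 5C-Oct4GFP- (3.38 to 5.39), and was at 138 TPM in the converted primed cells and 112 in R1 ESCs-primed, against 16.7 to 71.1 elsewhere. Skil, a SMAD co-repressor, was at 9.42 and 53.0 TPM in the GFP+ and GFP- cells of mES medium, 44.4 and 18.0 in those of 5C medium, 6.06 in naive cells, 61.7 in the converted primed cells and 51.8 in R1 ESCs-primed. Pcsk6, a proprotein convertase that processes Nodal, was highest in mES-Oct4GFP+ at 64.6 TPM and at 6.02 and 5.34 in the primed cells. Cfc1, the other EGF-CFC co-receptor gene, was at 47.7 and 26.1 TPM in the primed libraries and 15.5 in mES-Oct4GFP-, and at most 2.80 in the other 4.

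Cer1, which encodes the Nodal antagonist Cerberus, was at 497 TPM in the converted primed cells and 179 in R1 ESCs-primed. It had 0 counts in 5C-Oct4GFP+, so it was at least 1575-fold higher in the converted primed cells, taking 3 counts in that library as the floor. It was at 33.2 TPM in mES-Oct4GFP-, beside the extraembryonic endoderm markers above, and was not above 3.38 in the other libraries. Of 8 listed target genes, 6 were higher in the converted primed cells than in 5C-Oct4GFP+ and 1 was lower, and 7 were higher and 0 lower than in naive cells, beside the same shares of all genes, 13.7% and 22.2% higher. T, the mesoderm factor brachyury, was at 155 TPM in the converted primed cells and 374 in R1 ESCs-primed, Lhx1 at 131 and 104 and Foxa2, an endoderm factor, at 82.9 and 106. Ccn2 was lower in the converted primed cells than in 5C-Oct4GFP+, at 17.8 against 178 TPM. Id1, better known as a BMP target, was at 4.19 and 4.51 TPM in mES-Oct4GFP+ and naive cells, 98.2 in 5C-Oct4GFP+, 414 and 391 in mES-Oct4GFP- and 5C-Oct4GFP-, and 69.0 and 68.6 in the primed cells.

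**Figure D4:**
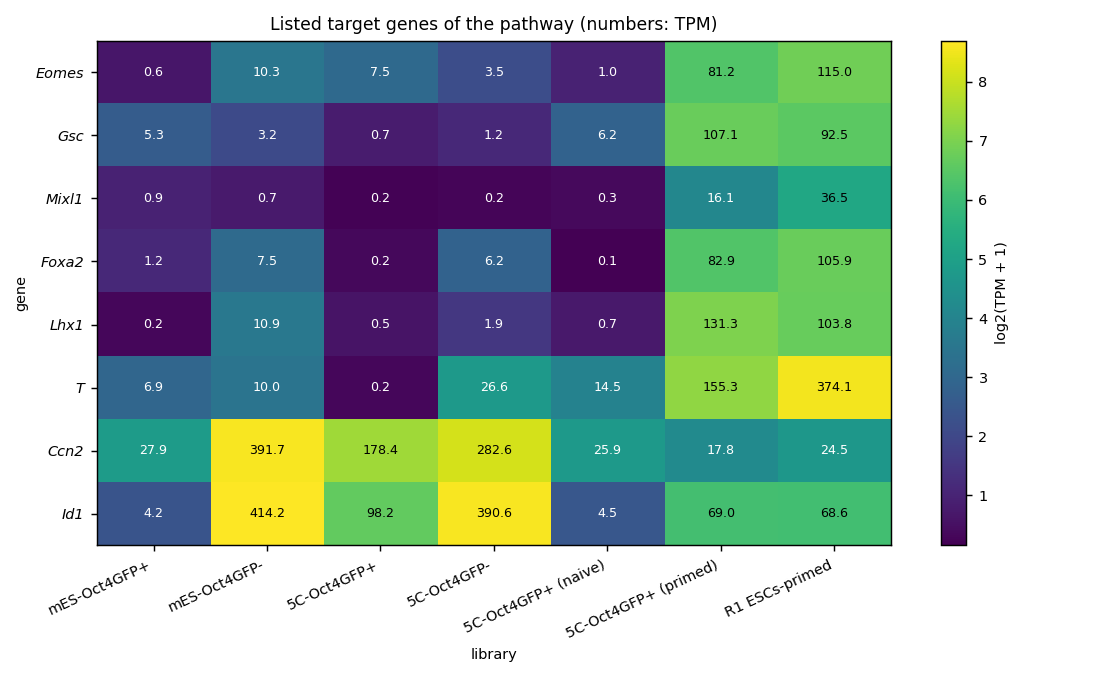
TPM of 8 listed target genes (rows, numbers in cells) in the 7 libraries (columns), coloured by log2(TPM + 1). Eomes, Gsc, Mixl1, Foxa2, Lhx1 and T are highest in the 2 primed libraries, and Ccn2 and Id1 are highest in mES-Oct4GFP-.

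The genes whose profiles over the 7 libraries were most like those of the members were found by the root mean square difference of centred log2(TPM + 1) among 17733 genes, and likeness over 7 libraries is a description only. For Nodal the nearest were Foxh1 (0.39), Ccno (0.44) and Cpeb1 (0.46), and for Tdgf1 Rbpms2 (0.28), Foxd3 (0.49) and Kirrel2 (0.54). Tdgf1 ranked 15 among all genes for likeness to Nodal. For Lefty1 they were Mixl1 (0.57), Lhx1os (0.69) and Lgr5 (0.77), and for Lefty2 Cdh3 (0.44), Rbm47 (0.44) and F630040K05Rik (0.48), so that the neighbouring Lefty genes had no gene in common among their nearest. Gdf3 was nearest to Apoc1 (0.53), Nr0b1 (0.65) and Gm13212 (0.69), Fst to Cnn1 (0.32), Cacna1g (0.33) and Fam89a (0.36), Inhba to Irx1 (0.15), Sema3a (0.15) and Cdkn2b (0.17), and Inhbb to Fgf1 (0.38) and Wipf1 (0.42). Acvr2b and Smad7 varied too little for this search.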

How the data were processed

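RNA-Seq was run on 7 libraries, 1 in each group, and the study did not repeat it. The authors aligned and quantified the reads with Bowtie and RSEM on mm10 (tool versions are not given in the sources used here) and deposited 1 gene table a library with expected counts, TPM and FPKM. The deposited TPM was used throughout, and the authors' expected counts, rounded to whole numbers, gave the counting intervals. FPKM as deposited was an alternative. No column of unmapped samples was present (0).

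Differences are of log2(TPM + 1) and ratios are of TPM, with exact Clopper-Pearson 95% intervals. Genes below 1 TPM in both libraries were left out, and a gene was called at an absolute log2 difference of at least 1. With 1 library a group no test was possible. Of the 29267 genes, 28756 had a symbol. Of the transcripts in the files, 98% are in the GENCODE M21 annotation, which gave coordinates and shared sequence. Intervals came from scipy 1.17.1 and figures from matplotlib 3.10.9 (Python 3.11.15, with pandas 2.3.3 and numpy 2.4.6), and the calling step was tested on simulated data. The alternatives are a pseudocount of 0.1, no minimum or a minimum of 5 TPM, median-ratio rescaling, FPKM and CPM without length. The pseudocount of 1 was also added to FPKM and CPM before the log2. A sum of Lefty1 and Lefty2 was added after the data were seen.

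All 10 members are named. Of the other pathway genes, those with up to 3 largest differences in each direction in a comparison could be named, and, for members with a log2 range of at least 2, the 3 genes of most similar profile. Of the genes this rule and the target list give, 3 are not reported here. The members and gene lists were chosen with earlier results of these data known.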

Additional observations from a re-analysis of the deposited data

Results flagged for a closer look

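Between the media, 4 genes moved past 2-fold in opposite directions in the GFP+ and the GFP- cells, and Skil did so as well between the fractions. With 1 library a group these differences were not tested. The log2 difference of Lefty2, 5C minus mES medium, was 1.16 in GFP+ and -2.42 in GFP- cells, 3.58 apart. With Lefty1 and Lefty2 summed these were 0.76, not past 2-fold, and -1.97. Lefty1 itself differed by only 0.14 in GFP+ cells, which lowers the difference of the sum however reads were split. The sum therefore does not test the split of reads between the genes. Skil was at 2.12 and -1.51, 3.63 apart, and Eomes at 2.41 and -1.32, 3.73 apart. T went the other way, at -2.68 and 1.33, which is -4.01 apart. In GFP+ cells T rested on 2 counts in 5C medium, being 28.9 times lower there (7.29 to 246). Eomes rested on 7 counts in mES medium and was 12.5 times as high in 5C medium (5.88 to 31.4). GFP+ minus GFP- cells, Skil was at -2.37 in mES medium and 1.26 in 5C medium, -3.63 apart, which is the same contrast of the 4 libraries read the other way.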

How the results depend on the processing

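No paired analysis was possible because each group was 1 library. Of 48 counts of members past 2-fold under 6 other settings, 1 moved by over 1.5 times. With log2(FPKM + 1), 4 members rather than 8 were called in the converted primed against the naive cells. Of 487 log2 differences of members under other settings, 1 called value changed sign. Lefty2 in the converted primed cells against R1 ESCs-primed went from 1.33 to -0.25 when Lefty1 and Lefty2 were summed. That sum was mostly Lefty1, at 564 and 715 TPM, so it does not test the Lefty2 call. Calls changed in 19 cases, among them Inhba with FPKM and Nodal and Tdgf1 in primed against naive cells under 3 settings each. Calls lost because a member was under the minimum of 5 TPM in both libraries are not among the 19. These were Inhba and Inhbb between the fractions of mES medium, where 4 rather than 6 members were called, and in primed against naive cells. Inhba was also lost in this way between the fractions of 5C medium and in converted primed against 5C-Oct4GFP+ cells. FPKM values were lower than TPM, so the pseudocount of 1 weighed more on low genes such as Inhba. Median-ratio rescaling moved the median log2 difference of all genes from -0.25 to -0.11 in 5C-Oct4GFP+ against 5C-Oct4GFP- and from 0.14 to 0.01 in primed against naive cells. Depth limits Inhba, at 1 count in 3 libraries, and Gdf3 in the converted primed library. It also limits the flagged differences of T and Eomes in GFP+ cells.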
